A study of Mus musculus with 8 samples.

Results

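The Slc9a genes encode sodium-proton exchangers, and 7 of them were followed here among 24675 genes measured in B16-F10 melanoma tumors: Slc9a2, Slc9a3, Slc9a4, Slc9a5, Slc9a7, Slc9a8 and Slc9a9. They were taken by gene symbol from the platform annotation of the array. The set was chosen by the measured differences in expression between the 2 diets in these same tumors, and its differences between diets are therefore given as a description without a test. Other Slc9a genes were not analysed here. Whole subcutaneous tumors from female C57BL/6J mice were compared, 4 from mice fed a high fat high cholesterol diet (HFHCD, called HFD in the sample titles) and 4 from mice fed a chow diet (CD). All mice carried the same graft of 250000 B16-F10 cells, a mouse melanoma line, injected under the skin of the flank at 9 weeks of age after 2 weeks of diet, and all tumors were taken at day 9. Each tumor had its own Affymetrix MouseGene2.0ST array, and every value below is a log2 expression value after RMA, the background correction, between-array scaling and probe summary that the authors applied. Nothing in the sources used here says whether the mice of a diet shared a cage or a grafting day. Errors therefore rest on the spread between these tumors only. Standard errors of log2 differences come from a fit over all genes, which draws the variance of each gene towards a common value. The 8 melanocyte markers, Tyr, Tyrp1, Dct and Pmel among them, averaged 11.63 ± 0.05 in HFHCD tumors and 11.55 ± 0.07 in CD tumors (SD, n = 4 each), so the lineage of the graft was plain in both groups.

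Sodium-proton exchangers let sodium run down its gradient in return for protons. At the plasma membrane they carry protons out of the cell and so defend the cytosol against acid, which matters in tumors because glycolytic cells make much of it. In the Golgi apparatus and in endosomes they let protons leak out of the lumen and thereby oppose the proton pump that acidifies these compartments, and luminal pH in turn governs receptor recycling, sorting and glycosylation. By background knowledge, Slc9a2, Slc9a3, Slc9a4 and Slc9a5 belong to the plasma membrane group, and Slc9a7, Slc9a8 and Slc9a9 to the Golgi and endosomal group. Slc9a5 also cycles through recycling endosomes, and Slc9a8 reaches the apical membrane of some epithelia, so the border between the groups is not strict.

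The promoters of 5 of the 7 genes were found in the RefSeq promoter set (GRCm38.p6), which runs from 250 bases before to 50 bases after each start. Those of the 3 genes whose levels differed most between the diets are shown 5′ to 3′ with every CG dinucleotide in capitals. CpG-rich starts are typical of broadly used genes, and CpG-poor starts of genes used in fewer cell types.
Slc9a9, chr9:94669642-94669941, plus strand: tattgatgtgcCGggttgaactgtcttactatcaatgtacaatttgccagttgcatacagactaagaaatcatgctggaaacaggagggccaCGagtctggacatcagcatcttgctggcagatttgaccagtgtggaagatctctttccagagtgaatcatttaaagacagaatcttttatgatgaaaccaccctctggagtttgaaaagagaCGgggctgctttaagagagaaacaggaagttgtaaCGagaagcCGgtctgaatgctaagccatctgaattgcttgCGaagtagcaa
Slc9a8, chr2:167421460-167421759, plus strand: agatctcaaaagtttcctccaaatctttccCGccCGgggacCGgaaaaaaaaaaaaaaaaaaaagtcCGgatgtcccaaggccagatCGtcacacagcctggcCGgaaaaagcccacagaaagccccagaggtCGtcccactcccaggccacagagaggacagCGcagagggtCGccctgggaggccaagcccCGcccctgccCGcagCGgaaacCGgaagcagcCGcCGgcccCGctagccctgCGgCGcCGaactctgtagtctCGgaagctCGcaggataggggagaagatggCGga
Slc9a5, chr8:105348008-105348307, plus strand: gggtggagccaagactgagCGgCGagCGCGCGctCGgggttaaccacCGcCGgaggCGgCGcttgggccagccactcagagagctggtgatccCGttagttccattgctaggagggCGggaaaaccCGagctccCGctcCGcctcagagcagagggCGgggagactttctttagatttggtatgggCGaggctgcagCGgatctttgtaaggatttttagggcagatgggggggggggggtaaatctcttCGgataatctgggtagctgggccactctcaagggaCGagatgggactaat
The Slc9a9 window held 6 CG dinucleotides and 43.7% G and C, whereas the windows of Slc9a8 and Slc9a5 held 22 and 20, with 61.3% and 60.7% G and C. Over all 32851 promoters of this length the median was 7 CG dinucleotides and 52.67% G and C. Slc9a3 and Slc9a7, whose readings in the tumors were low, had 25 and 24 CG dinucleotides. Searched on both strands for the E-box CACGTG, which is bound by MITF and related factors of melanocytes and lysosome biogenesis, and for the core ACGTG contained in it, only the Slc9a3 window held either. Its E-box starts 87 bases before the gene's start and is shown here in capitals, since it is the single match among the 5 windows.
Slc9a3, chr13:74121163-74121462, plus strand: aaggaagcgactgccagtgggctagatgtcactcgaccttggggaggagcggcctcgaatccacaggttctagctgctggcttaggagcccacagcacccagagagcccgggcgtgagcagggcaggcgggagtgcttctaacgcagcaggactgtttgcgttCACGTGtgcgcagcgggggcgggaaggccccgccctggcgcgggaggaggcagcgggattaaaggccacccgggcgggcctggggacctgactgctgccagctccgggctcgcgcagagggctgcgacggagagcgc
Of all promoters, 7.15% held the E-box and 19.6% held the core. A match or its absence describes these letters alone.

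Slc9a9, the exchanger of late recycling endosomes, showed the widest separation of the 7 genes. Its log2 expression was 7.49, 7.45, 7.47 and 7.64 in HFHCD tumors 1 to 4, against 6.73, 7.01, 7.0 and 6.85 in CD tumors 1 to 4. All HFHCD values were higher than all CD values, and the lowest HFHCD tumor exceeded the highest CD tumor by 0.45. That distance is larger than the whole range within either diet, which was 0.19 in HFHCD tumors and 0.28 in CD tumors. Means were 7.52 ± 0.09 in HFHCD tumors and 6.90 ± 0.14 in CD tumors (SD, n = 4 each), a log2 difference of 0.62 with a standard error of 0.10, or 1.54-fold. The HFHCD mean stood above 76.1% of all values on the arrays and the CD mean above 69.2%. The difference ran from 0.56 to 0.66 when any single tumor was left out.

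Slc9a8, which sits in the Golgi apparatus, had a wider spread on CD than on HFHCD. Its log2 expression was 8.49, 8.57, 8.29 and 8.69 in HFHCD tumors 1 to 4, against 7.45, 8.34, 8.0 and 8.33 in CD tumors 1 to 4. CD 1 was the lowest tumor by a wide margin, and the groups overlapped, because CD 2 and CD 4 were slightly above HFHCD 3. Without HFHCD 3 they would not have overlapped. Means were 8.51 ± 0.17 in HFHCD tumors and 8.03 ± 0.42 in CD tumors (SD, n = 4 each). The log2 difference of 0.48 (standard error 0.19) shrank to 0.29 without CD 1 and to 0.17 (standard error 0.12) without CD 1 and CD 3.

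Slc9a5, a plasma membrane exchanger known mainly from neurons, was the only member of its group with readings above the dim level, set at the 40th percentile of all values, a log2 value of 4.49. Its log2 expression was 5.85, 5.78, 5.41 and 5.43 in HFHCD tumors 1 to 4, against 5.06, 5.26, 5.34 and 5.06 in CD tumors 1 to 4. The groups did not overlap, but HFHCD 3 and CD 3 were only 0.08 apart. HFHCD 1 and HFHCD 2 carried most of the separation. Means were 5.62 ± 0.23 in HFHCD tumors and 5.18 ± 0.14 in CD tumors (SD, n = 4 each), a log2 difference of 0.44 (standard error 0.13) or 1.36-fold. It ran from 0.36 to 0.51 when any single tumor was left out.

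**Figure D1:**
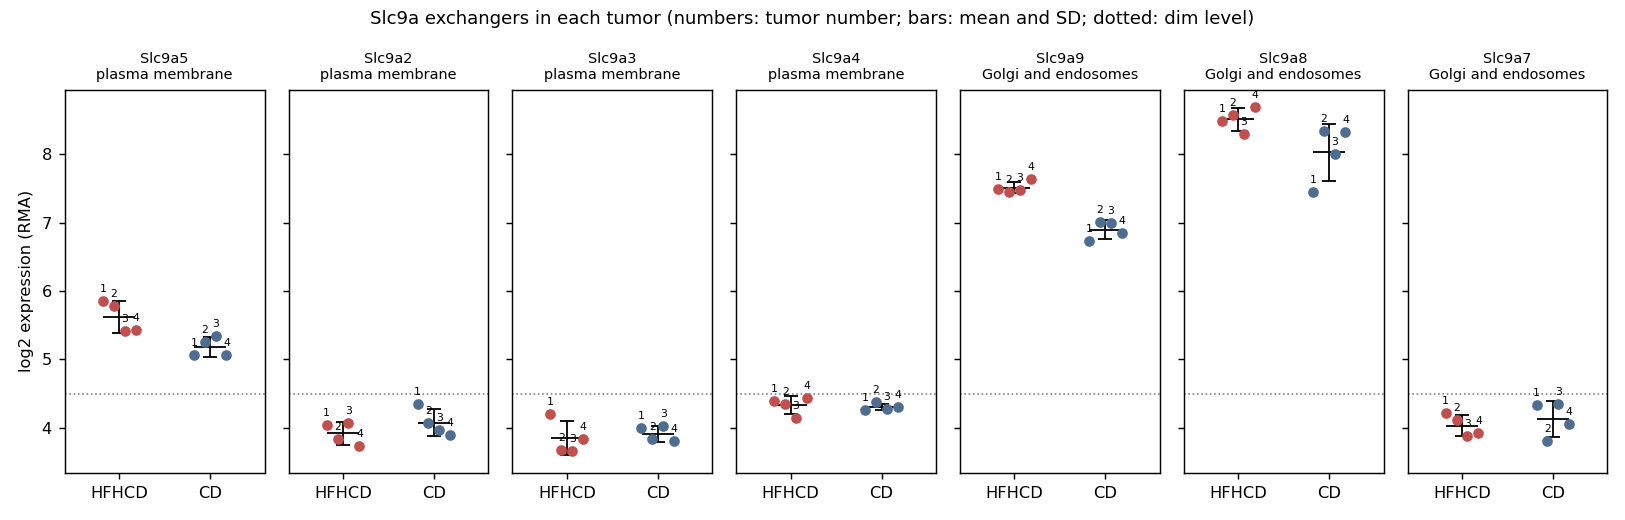
Log2 expression (y axis) of the 7 Slc9a genes in each tumor, HFHCD left of CD in every panel, with points numbered by tumor, bars for mean and SD (n = 4 each) and a dotted line at the dim level of 4.49. Slc9a5, Slc9a9 and Slc9a8 lie above the line in all 8 tumors, and the other 4 genes lie below it in all 8.

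The remaining 4 genes were dim in every tumor. Slc9a2, an apical exchanger of stomach and gut epithelium, read 4.04, 3.83, 4.07 and 3.73 in HFHCD tumors 1 to 4, against 4.35, 4.07, 3.97 and 3.90 in CD tumors 1 to 4. The groups overlapped, and the highest reading was that of CD 1. Its log2 difference of -0.15 (standard error 0.13) came to -0.06 without that tumor.

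Slc9a3, which absorbs sodium in gut and kidney tubule, read 4.20, 3.68, 3.66 and 3.84 in HFHCD tumors 1 to 4, against 3.99, 3.83, 4.03 and 3.80 in CD tumors 1 to 4. HFHCD 1 gave the highest value, HFHCD 4 lay within the CD range, and HFHCD 2 and HFHCD 3 lay below every CD tumor. The log2 difference was -0.06 (standard error 0.13), and -0.18 (standard error 0.10) without HFHCD 1. Slc9a4, a basolateral exchanger of the stomach and kidney, read 4.39, 4.35, 4.14 and 4.44 in HFHCD tumors 1 to 4, against 4.26, 4.37, 4.28 and 4.31 in CD tumors 1 to 4. The CD tumors lay within 0.11 of each other and inside the range of the HFHCD tumors, and the log2 difference was 0.02 (standard error 0.09).

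Slc9a7, the exchanger of the trans-Golgi network and the dim member of the Golgi and endosomal group, read 4.21, 4.12, 3.88 and 3.92 in HFHCD tumors 1 to 4, against 4.33, 3.80, 4.35 and 4.05 in CD tumors 1 to 4. The groups overlapped. The log2 difference was -0.10 (standard error 0.14) over all tumors and 0.11 (standard error 0.13) without CD 1 and CD 3, the CD tumors with the highest readings. At these levels a probe set reports little beyond background, so an equal reading in both diets does not show an equal amount of transcript.

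By compartment, 1 of 4 plasma membrane exchangers and 1 of 3 Golgi and endosomal exchangers were higher in HFHCD tumors without overlap, and 0 of 7 were lower without overlap. Among all genes 2.93% were higher and 2.27% were lower without overlap, 5.2% in all. Because the genes were gathered with this contrast known, nothing is read from these shares. The median log2 difference was -0.02 over the plasma membrane group and 0.48 over the Golgi and endosomal group, against 0.00 over all genes. With 3 genes the median of the Golgi and endosomal group is the difference of Slc9a8 itself, so it came to 0.29 without CD 1 and to 0.17 without CD 1 and CD 3. The 3 genes above the dim level in all tumors had differences of 0.44 to 0.62, and those of the 4 dim genes ran from -0.15 to 0.02. Over the 8 tumors, Slc9a9 followed Slc9a5 with a Pearson r of 0.79 and Slc9a8 with 0.78, and Slc9a5 followed Slc9a8 with 0.61. The coefficient farthest from 0 among all pairs was negative, -0.85 between Slc9a2 and Slc9a8, and Slc9a8 also ran against Slc9a7 (-0.58) and Slc9a9 against Slc9a2 (-0.59). These points share the diets, so the coefficients mix the difference between diets with the spread within them and are given as a description.

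**Figure D2:**
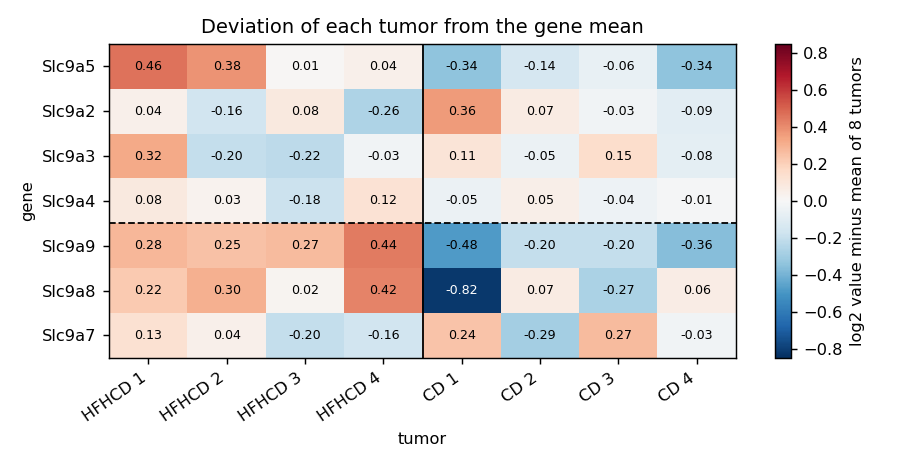
Deviation of each tumor (columns, HFHCD left of the solid line and CD right of it) from the mean of each gene over 8 tumors, in log2 units, with plasma membrane exchangers above the dashed line and Golgi and endosomal exchangers below it. Slc9a9 is positive in all HFHCD tumors and negative in all CD tumors, and the lowest cell is Slc9a8 in CD 1 at -0.82.

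Over all genes, the first principal component set CD 1 apart from the other arrays and the second set CD 3 apart. Correlations between arrays ran from 0.991 to 0.994 within HFHCD and from 0.974 to 0.990 within CD. The differences of Slc9a9 and Slc9a5 were 0.59 (standard error 0.10) and 0.46 (standard error 0.15) without these 2 tumors, close to the values over all 8. The difference of Slc9a8, 0.17 then, changed most. Slc9a3, Slc9a4 and Slc9a7 changed sign with them left out, at 0.03, -0.01 and 0.11.

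**Figure D3:**
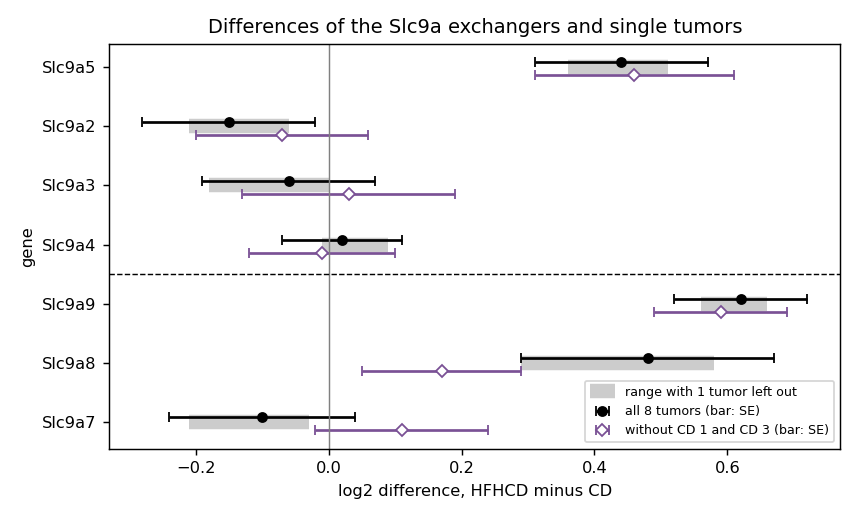
Log2 difference between HFHCD and CD (x axis) for each Slc9a gene over all 8 tumors (black, bar for the standard error), without CD 1 and CD 3 (open diamonds, bar for the standard error) and over the settings with a single tumor left out (grey range). Slc9a9 and Slc9a5 stay above 0.3 in every setting drawn, whereas Slc9a8 falls to 0.17 without CD 1 and CD 3.

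Each array averages over melanoma cells and all host cells of the tumor, and fewer cells of a type cannot be told apart from less RNA per cell. Mean marker levels of host cells were lower in HFHCD tumors, but no list had an adjusted p under 0.05 by the permutation test below. The mean of 7 fibroblast markers was 5.70 to 5.85 in HFHCD tumors, against 7.61, 6.70, 8.31 and 6.55 in CD tumors 1 to 4 (exact two-sided permutation test, p = 0.0286, adjusted p = 0.1 over 7 lists). The mean of 8 macrophage markers was 6.04 to 6.77 in HFHCD tumors and 6.72 to 8.29 in CD tumors (exact permutation p = 0.0571, adjusted p = 0.1), and that of 8 skeletal muscle markers 5.18 to 5.82 in HFHCD tumors and 5.73 to 7.84 in CD tumors (exact permutation p = 0.0571, adjusted p = 0.1). By limma at unadjusted p under 0.05, 7 of 7 fibroblast, 6 of 8 macrophage and 8 of 8 muscle markers were lower on HFHCD. The counts were 2 of 7 for T cell, 1 of 8 for endothelial, 1 of 8 for epithelial and 0 of 8 for melanocyte markers. In each of the 7 lists 0 were higher. Over all genes, 3.91% were lower and 4.76% higher. The mean of 7 T cell markers, 4 of them dim, was 4.10 to 4.29 in HFHCD tumors and 4.37 to 5.85 in CD tumors (exact permutation p = 0.0286, adjusted p = 0.1). Differences of the endothelial, epithelial and melanocyte lists were -0.14, -0.59 and 0.07, with exact permutation p-values of 0.257, 0.229 and 0.114. The smallest p that 4 tumors against 4 allow is 0.0286. The marker lists were chosen with earlier results of these data known, so these p-values and counts are a description.

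The fibroblast, macrophage, muscle and T cell means were highest in CD 1 and CD 3. Slc9a9 read 6.73 and 7.0 in CD 1 and CD 3, and 7.01 and 6.85 in CD 2 and CD 4. Without CD 1 and CD 3 the fibroblast, macrophage and muscle lists differed by -0.86, -0.28 and -0.66, and the Slc9a9 difference was 0.59. The fibroblast means of CD 2 and CD 4, 6.70 and 6.55, were still above the 5.70 to 5.85 of HFHCD tumors. Slc9a8 was lowest in CD 1 and CD 3, at 7.45 and 8.0. The part of host cell content in the Slc9a differences was not tested.

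**Figure D4:**
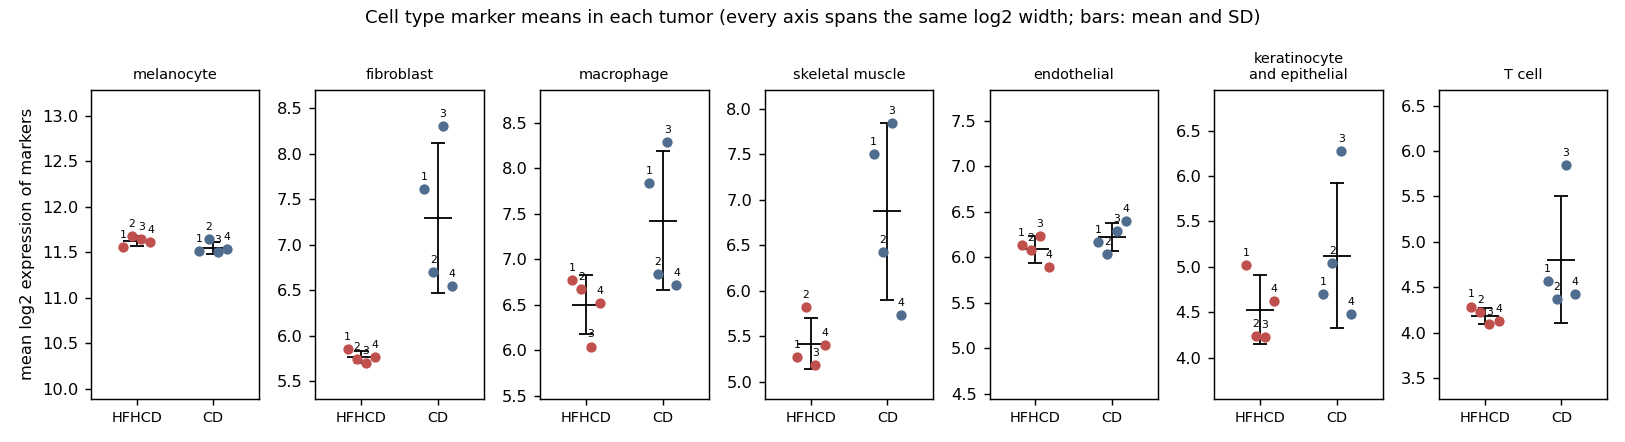
Mean log2 expression (y axes, all of equal width) of the measured markers of 7 cell types in each tumor, HFHCD left of CD, with points numbered by tumor and bars for mean and SD (n = 4 each). Fibroblast, macrophage and skeletal muscle means are highest in CD 1 and CD 3, while melanocyte means stay between 11.50 and 11.68 in all tumors.

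Other genes of proton, sodium and bicarbonate handling were tested with limma, and those with an unadjusted p under 0.05 were called, as the study's methods do. Of 52 such genes listed, 48 were matched, of which 2 were higher in HFHCD tumors, 4 were lower and 42 did not pass. Their median log2 difference was 0.02. These lists, too, were chosen with earlier results of these data known, so their counts are a description. Of all genes, 4.76% were higher and 3.91% lower, 8.68% in all, and of the 14804 genes with a mean above the dim level 6.4% were higher and 5.29% lower. No gene of the arrays passed at an adjusted p under 0.05 (0 of 24675 by limma with Benjamini-Hochberg adjustment and 0 by the methods' t-test, against 2141 and 1878 unadjusted). The closest relatives of the exchangers were among those that did not pass. Slc9b2, a sodium-proton antiporter, averaged 6.09 ± 0.31 in HFHCD tumors and 6.00 ± 0.38 in CD tumors (SD, n = 4 each), and the dim Slc9b1 and Slc9c1, both exchangers of sperm, had log2 differences of 0.01 and -0.01.

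Of 8 proteins that bind the exchangers, 0 were higher and 2 lower. Tesc, whose product tescalcin binds exchanger tails, averaged 5.38 ± 0.17 in HFHCD tumors and 5.74 ± 0.28 in CD tumors (SD, n = 4 each), a log2 difference of -0.36 with an adjusted p of 0.543 by limma. Chp2, a related calcineurin-like partner, was dim and differed by -0.25 (adjusted p = 0.551 by limma). For both genes the groups overlapped. Tesc no longer passed without HFHCD 1 (-0.30), HFHCD 3 (-0.33), CD 1 (-0.24) or CD 4 (-0.34), and Chp2 without HFHCD 1, HFHCD 4, CD 1, CD 2 or CD 3 (-0.20 to -0.26). By the methods' t-test Tesc did not pass, whereas Chp2 did.

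Of 13 carbonic anhydrases, which turn carbon dioxide into bicarbonate and a proton, 1 was higher and 1 lower. Car9, the cell surface enzyme known to be induced by hypoxia, read 10.04, 9.46, 10.07 and 9.65 in HFHCD tumors 1 to 4, against 9.25, 8.50, 8.98 and 9.71 in CD tumors 1 to 4. CD 4 overlapped with the HFHCD tumors, and the log2 difference was 0.70 (standard error 0.25, unadjusted p = 0.0197 and adjusted p = 0.498 by limma). It no longer passed without HFHCD 1 (0.62) or HFHCD 3 (0.61), without CD 1 and CD 3 together, or by the methods' t-test. Car3, an enzyme abundant in fat and muscle, had a log2 difference of -2.40 (adjusted p = 0.423 by limma), with 4.83 to 6.25 in HFHCD tumors and 6.49 to 9.49 in CD tumors. It was highest in CD 1 and CD 3, as the muscle markers were, and its difference was -1.29 without them.

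Of 5 genes listed for monocarboxylate transport, which moves lactate together with a proton, Slc16a8 was higher and Slc16a1 lower. Slc16a1, a widely used lactate carrier, averaged 9.20 ± 0.23 in HFHCD tumors and 9.53 ± 0.17 in CD tumors (SD, n = 4 each), a log2 difference of -0.33 (adjusted p = 0.543 by limma). Slc16a8, the carrier of retinal pigment epithelium, averaged 4.78 ± 0.21 in HFHCD tumors and 4.49 ± 0.11 in CD tumors (SD, n = 4 each), a log2 difference of 0.29 (adjusted p = 0.551 by limma). Its CD mean lay at the dim level of 4.49, with CD 4 at 4.33. It no longer passed when dim genes were left out of the fit. Slc16a1 no longer passed without HFHCD 1, HFHCD 2, HFHCD 4, CD 2 or CD 4 (-0.22 to -0.35), and Slc16a8 without HFHCD 1, HFHCD 2, CD 2 or CD 4 (0.19 to 0.29). Neither gene passed by the methods' t-test. At the same unadjusted threshold, limma called 0 of 9 bicarbonate transporters, 0 of 6 endolysosomal chloride-proton exchanger genes and 0 of 4 sodium pump genes, with median differences of -0.01, 0.10 and -0.07. Differences of single genes ran from -0.07 to 0.38, from -0.12 to 0.44 and from -0.28 to 0.52. Without CD 1 and CD 3, some of the bicarbonate and chloride-proton genes did pass, as lower in HFHCD tumors.

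**Figure D5:**
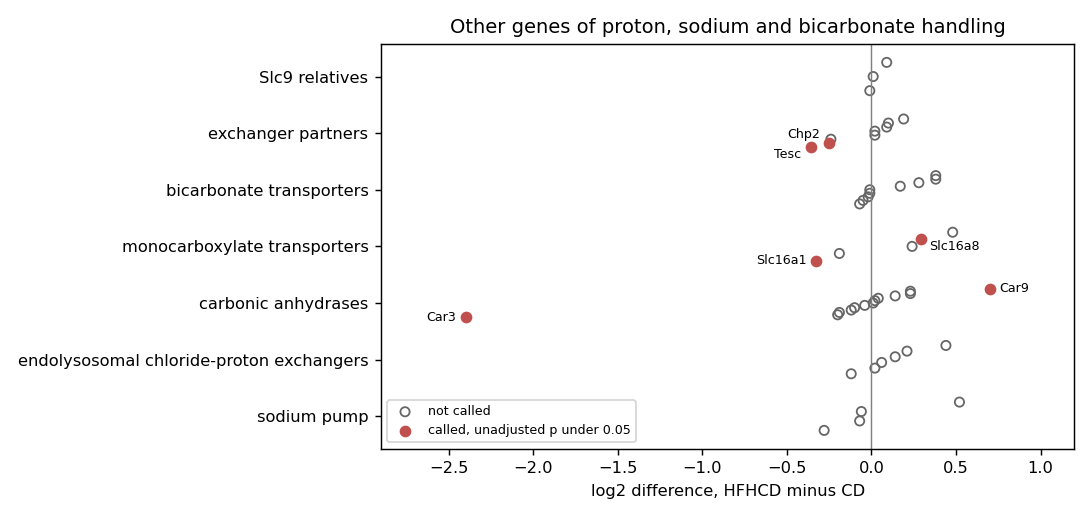
Log2 difference between HFHCD and CD (x axis) for 48 other genes of proton, sodium and bicarbonate handling in 7 lists (rows), with filled points for genes at an unadjusted p under 0.05 by limma. Of these, 2 lie right of zero and 4 left of it, with Car3 at -2.40 and Car9 at 0.70 the outermost.

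The genes whose profile over the 8 tumors came closest to a member were sought among 18241 genes by Pearson r. For Slc9a9 they were Nell1 (r = 0.974), a secreted protein gene, Mug-ps1 (0.966), a pseudogene whose probes may also detect its relatives, and Gpbar1 (0.960), the gene of a bile acid receptor. Gpbar1 averaged 5.29 in HFHCD tumors and 5.01 in CD tumors, and the other two had means below the dim level on both diets. The coefficients were 0.962, 0.968 and 0.961 over the 6 tumors without CD 1 and CD 3. For Slc9a5 the closest were Fbxl12 (0.984), Ogt (0.981) and Pnpla6 (0.976), which encode an F-box protein, the enzyme that attaches N-acetylglucosamine to proteins and a lysophospholipase. Pnpla6 averaged 7.63 in HFHCD tumors and 6.54 in CD tumors. For Slc9a8 they were Slc35e2 (0.988), Tom1l2 (0.986) and Rcor3 (0.979), a putative transporter, a trafficking adaptor and a corepressor. Without CD 1 and CD 3 these came to 0.896, 0.883 and 0.930. The 6 tumors are among the 8 on which the genes were picked, so their coefficients are no separate check. All coefficients also mix the difference between diets with the spread within them. With so many genes searched over so few tumors, high coefficients arise readily, and likeness of profile is all that is reported.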

How the data were processed

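Total RNA of 8 whole tumors was hybridised to Affymetrix MouseGene2.0ST arrays, 1 per tumor. The deposited values are log2 expression from RMA, which the authors list together with Affymetrix Expression Console in their processing notes. No source used here gives the versions, the probe set definition or a genome build. Each probe set stands for 1 Entrez gene. The platform annotation gave a single symbol for 24675 of 25429 probe sets, several for 0, and none for 754, which stayed unnamed and entered only the alternative with all probe sets. Values ran from 2.22 to 14.05, and the number of arrays limits the precision.

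Groups and numbers came from the sample titles. All 8 arrays entered the comparison of HFHCD with CD, fitted with limma 3.58.1 (lmFit, eBayes; R 4.3.3), with no covariate, filter or further scaling. RMA equalises the distribution of probe values between arrays before summary, so a shift shared by most genes would be largely hidden. The medians of the deposited values still ran from 5.03 in HFHCD 3 to 5.19 in CD 1. Following the methods, an unadjusted p under 0.05 made a call, and Benjamini-Hochberg adjustment covered every gene tested. The methods' t-test was run on the same values. The fitting step was tested on simulated data. The members and lists were chosen with earlier results of these data known, and the members carry no test. Marker lists were compared by exact permutation over 70 assignments in Python 3.11.15.

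All members and the Slc9 relatives are named, with up to 4 called genes of each other list by smallest p, and the 3 genes of highest r for the members above the dim level. That search left out predicted, microRNA, small nucleolar, olfactory, vomeronasal and antigen receptor genes. The alternatives tried were a block for the replicate number, single arrays or CD 1 and CD 3 left out, 3 scalings, array weights, a trended and robust prior, leaving out dim genes and all probe sets. Promoters are from RefSeq. A planned comparison of protein sequences was not made, and proteins were not used here.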

Additional observations from a re-analysis of the deposited data

Results flagged for a closer look

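The mean of the 7 measured T cell markers in CD 3 was 5.85, against 4.37 to 4.57 in the other CD tumors, and its gap to the nearest tumor was 0.868 of the range of the CD group, more than Dixon's critical value for 4 samples. It was the only one of 46 sets of 4 tumors looked at, over the members, the other named genes and the marker lists, to pass this bound, which chance passes in about 1 of 20. No Slc9a gene passed it in either diet, CD 1 for Slc9a8 included.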

How the results depend on the processing

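Over 14 alternatives each, the log2 differences of Slc9a9 (0.56 to 0.66), Slc9a5 (0.36 to 0.51), Slc9a8 (0.17 to 0.58) and Slc9a2 (-0.21 to -0.06) kept their sign, whereas Slc9a3 (-0.18 to 0.03), Slc9a4 (-0.01 to 0.09) and Slc9a7 (-0.21 to 0.11) did not in all. With a single tumor left out, the ranges were 0.56 to 0.66 for Slc9a9, 0.36 to 0.51 for Slc9a5, 0.29 to 0.58 for Slc9a8 and -0.21 to -0.03 for Slc9a7, and 2 to 3 members were higher without overlap. Of all genes, 839 to 1942 were then called higher and 632 to 1767 lower, most without CD 1 for both and fewest lower without HFHCD 1, and of the other pH regulation genes 0 to 5 higher and 1 to 4 lower, with 0 higher and 1 lower without HFHCD 1 and 5 higher without CD 4. Without CD 1 and CD 3, 1810 genes were called higher and 1776 lower, and 7 pH regulation genes lower. With array weights 1928 were higher and 1582 lower, and with dim genes left out, so that fewer were tested, 635 were lower and 1 pH regulation gene was higher. The pH regulation genes called higher numbered 4 after quantile and 4 after cyclic loess normalization and 0 by the methods' t-test, and 2 were called lower after median centring. The cause was not tested. No pairing by the numbers in the titles was visible. Deviations of same-numbered tumors correlated at 0.269, -0.029, -0.265 and 0.051, and only HFHCD 1 had its same-numbered CD tumor as closest match. With the replicate block 5 pH regulation genes were higher and 2 lower, and the Slc9a9 difference stayed at 0.62 (standard error 0.11). The calls of Tesc, Chp2, Slc16a1, Slc16a8 and Car9 were lost in 32 of their alternatives in all, Car9 without HFHCD 1 (0.62) or HFHCD 3 (0.61), without CD 1 and CD 3 and by the methods' t-test, while Car3 kept its call in all 18. The fibroblast, macrophage and muscle differences came to -0.86, -0.28 and -0.66 without CD 1 and CD 3. With 4 tumors a diet and whole-tumor RNA, differences in cell content and in transcript per cell are not separated, and readings of the 4 dim members near background can hide a difference in transcript.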
